A study of Mus musculus with 18 samples.

Results

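The spleens of diabetic ICR mice that had received an alginate oligosaccharide (AOS)-modified microbiota transplant (A10-FMT) were compared with the spleens of mice with diabetes alone (STZ). The comparison takes in 6 of the 18 RNA-seq libraries of the series, 3 A10-FMT and 3 STZ, chosen by their treatment labels. All mice were 10 weeks old and of the outbred ICR strain, and the methods describe them as male. STZ mice had a single dose of streptozotocin, a toxin that kills the insulin-making beta cells of the pancreas. A10-FMT mice had the same streptozotocin and then oral small-intestinal content from donor mice dosed with AOS, a sugar chain from brown algae, at 10 mg/kg. Con-FMT mice had streptozotocin and content from water-dosed donors, and Con mice had saline and no streptozotocin. STZ-A10 mice had streptozotocin and AOS itself at 10 mg/kg, and A10 mice had AOS at that dose without streptozotocin. These 4 groups are given beside the comparison, with 3 libraries each. The donor content was pooled within a donor group, so A10-FMT rests on 1 pool of microbiota, and streptozotocin models the loss of insulin rather than the autoimmunity of type 1 diabetes. A saline gavage of the STZ mice to match the transplant is not described in the sources used here, so the procedure and the microbiota cannot be told apart in A10-FMT against STZ. The question asked of the spleen was whether the transplant moved gene expression away from that of diabetes alone.

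The spleen filters blood in its red pulp, where macrophages take up old red cells, break down their heme and export the iron through ferroportin. Its white pulp holds B cell follicles and T cell zones, kept in place by chemokines of stromal cells. In the mouse the red pulp also makes red cells and platelets throughout life. Diabetes raises glucose, and often glucocorticoids, in the blood that reaches each of these compartments.

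The libraries carried the markers of spleen. Of 15 markers of B cells, T cells, red pulp macrophages, erythroid precursors and stroma, 14 had at least 5 RPKM (reads divided by gene length and by the library's mapped reads) in each of the 6 libraries, and the lowest value was 4.96 RPKM, of the T cell gene Cd3e. Globin transcripts took 10.4% to 42.7% of the summed RPKM, with 36.8% ± 7.57 (SD, n = 3) in A10-FMT and 26.3% ± 13.8 (SD, n = 3) in STZ. STZ replicate 1 had the lowest globin share of the 6 and A10-FMT replicate 3 the highest, and both stand apart from the rest in several gene groups below. Log2 values of library pairs correlated across genes with r of 0.961 to 0.983 within STZ, 0.935 to 0.971 within A10-FMT and 0.903 to 0.982 between them. Between 11532 and 12359 genes reached 1 RPKM in a library. RPKM keeps no read counts. In 253 smell, pheromone and taste receptor genes the most frequent low value was 0.08 or 0.09 RPKM, so that values under 1 RPKM rest on few reads.

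One gene, Kap, was past the adjusted threshold. Kap (kidney androgen-regulated protein, chr6:133849851-133853762 in GRCm38) is known as a transcript of kidney tubules. Its level was 23.7, 25.9 and 20.9 RPKM in STZ replicates 1 to 3 and 0.14, 0 and 0 RPKM in A10-FMT. The groups were far apart, and 2 of the 3 A10-FMT libraries listed the gene at 0. Kap fell by 4.55 (SE 0.17) on the log2(RPKM + 1) scale as deposited, with an adjusted p of 4.4e-10 from limma. It met the filter of 1 RPKM in 3 libraries through STZ alone, so the filter had already fixed its direction and lack of overlap. Values listed at 0 also have no spread, which lowers the SE. Kap was listed at 0 in the 3 Con-FMT libraries too, and stood at 13.3, 20.1 and 20.97 RPKM in Con. So the level in STZ lay near that of Con, and Kap was at or near 0 with either transplant. Some other kidney transcripts were split in the same way at far lower levels. Of 18 genes on the kidney list, 5 were lower in A10-FMT without overlap as deposited (9.32% of all 19320 genes were) and 1 higher. For Kap, Miox and the tubule transporter gene Slc22a6 all 6 Con and STZ libraries lay above the 12 others. Between 0 and 4 of the 18 genes were listed at 0 in a Con or STZ library, and between 6 and 9 in each of the others. On the testis germ cell list, also of 18 genes, 0 or 1 were at 0 in a Con or STZ library and 1 to 9 in the others. Fewer listings at 0 in Con and STZ were thus not particular to the kidney list. Miox, an enzyme of kidney tubules, was at 0.38, 0.44 and 0.44 RPKM in STZ and listed at 0 in A10-FMT, which is a matter of a few reads.

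Beyond Kap, no gene passed. The 1 gene past an adjusted p of 0.05 was 0.00817% of 12237 genes tested with the values as deposited, and 0.00818% of 12231 with the globin genes left out and each library centred on its median. At an unadjusted p under 0.05, 2121 genes (17.3%) differed as deposited, 216 of them higher (1.77%) and 1905 lower (15.6%) in A10-FMT. With globins out and libraries centred there were 1558 (12.7%), 855 higher (6.99%) and 703 lower (5.75%). Those counts use the spread of all 18 libraries. With limma on the 6 libraries alone, 641 of 12237 genes as deposited and 554 of 12231 after centring were at an unadjusted p under 0.05. The median of all genes differed by -0.15 (log2) between the groups as deposited and by 0.02 after centring. Library medians ran from 3.44 to 3.87, lowest in the library with the most globin and highest in the one with the least. Leaving the globin genes out without centring gave 215 higher and 1904 lower. With quantile normalization the split was 545 higher to 876 lower. Log2 differences below are those after centring unless they are called deposited, and each adjusted p is from limma over all genes. The 3 libraries of a group are separate samples, but the labels do not say that they are separate animals, so that the p-values measure the spread between samples. The Con-FMT comparison with STZ uses the same STZ libraries, so its values are set side by side and not counted as a repeat. It also had Kap alone past the threshold (0.00818%), and A10-FMT against Con-FMT had 0 genes past it and 2368 (19.4%) at an unadjusted p under 0.05.

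**Figure D1:**
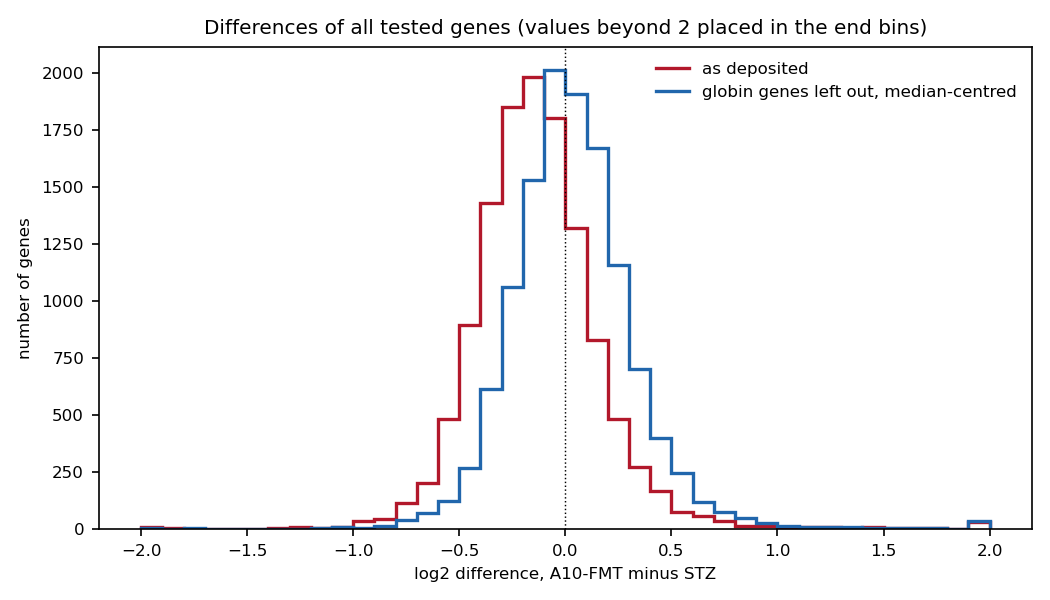
Number of genes (vertical axis) by log2 difference of A10-FMT minus STZ (horizontal axis), as deposited (red) and with globin genes left out and libraries median-centred (blue). The deposited values lie to the left of 0, with a median of -0.15, and the centred ones around 0, with a median of 0.02.

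Txnip and Arrdc4, genes that follow glucose, were lower in A10-FMT than in STZ, short of the adjusted threshold. Txnip (thioredoxin-interacting protein, chr3:96557957-96561883) is transcribed when glucose enters a cell and restrains further glucose uptake. Its promoter is shown because the element through which glucose acts on it lies close to the start. Arrdc4 is an arrestin relative of Txnip with the same known control, and Per1, a clock gene described further on, is shown with it because both hold the related E-box. The 250 bases before the start are from RefSeq (GRCm38.p6), with the motif in capitals, at chr3:96557707-96557956 (plus strand) for Txnip, chr7:68749239-68749488 (minus strand) for Arrdc4 and chr11:69098699-69098948 (plus strand) for one start of Per1.
Txnip: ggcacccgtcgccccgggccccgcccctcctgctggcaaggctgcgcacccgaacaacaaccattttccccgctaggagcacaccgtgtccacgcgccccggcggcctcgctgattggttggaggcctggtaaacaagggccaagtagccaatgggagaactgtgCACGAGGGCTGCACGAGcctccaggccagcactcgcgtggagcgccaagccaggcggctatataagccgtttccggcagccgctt
Arrdc4: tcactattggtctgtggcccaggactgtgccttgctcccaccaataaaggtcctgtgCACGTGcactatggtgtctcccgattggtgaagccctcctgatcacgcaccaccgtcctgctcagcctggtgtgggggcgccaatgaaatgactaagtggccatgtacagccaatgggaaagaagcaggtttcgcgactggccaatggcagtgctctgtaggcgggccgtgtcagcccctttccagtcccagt
Per1: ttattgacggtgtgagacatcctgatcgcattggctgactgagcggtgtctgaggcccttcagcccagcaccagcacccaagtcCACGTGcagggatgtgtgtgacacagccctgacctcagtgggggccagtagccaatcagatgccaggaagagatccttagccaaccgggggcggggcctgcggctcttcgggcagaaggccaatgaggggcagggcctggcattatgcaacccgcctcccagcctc
In Txnip the capitals mark the carbohydrate response element pattern CACGNGNNNNNCACGNG, a pair of E-box-like hexamers 5 bases apart, which begins 85 bases before the start. Searched on both strands, it was in 16 of 32851 promoter windows of 300 bases (0.0487%). In the other 2 promoters the capitals mark the E-box CACGTG, which 7.15% of the windows hold, and which begins 193 bases before the start in Arrdc4 and 166 bases before it in Per1. The longer pattern was found in 1 of the 16 genes of the glucose-sensing list that had a promoter in the table, and that gene was Txnip. A match describes the letters of these windows and says nothing of binding in these mice.

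Txnip was measured at 337, 253 and 206 RPKM in STZ and 147, 156 and 81.96 RPKM in A10-FMT. All 3 A10-FMT libraries were below all 3 STZ libraries, and A10-FMT replicate 3 was the lowest. The log2 difference was -0.90 (SE 0.23), with an adjusted p of 0.17. In Con-FMT the levels were 179, 181 and 241 RPKM, between the other 2 groups but for 1 library inside the STZ range, with a difference from STZ of -0.39. Con libraries held 103, 140.0 and 225 RPKM.

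Arrdc4 stood at 11.3, 8.79 and 11.4 RPKM in STZ and at 7.94, 7.16 and 3.32 RPKM in A10-FMT. Again every A10-FMT library was under every STZ library, by a margin that was small for replicate 1. The difference was -0.58 (SE 0.21, adjusted p of 0.34), and -0.33 without A10-FMT replicate 3. Igfbp3, which binds insulin-like growth factors in serum and tissue, read 169, 147 and 75.5 RPKM against 74.1, 87.96 and 18.9 RPKM. The groups overlapped, since STZ replicate 3 was below A10-FMT replicate 2, and the difference was -1.12 (SE 0.39, adjusted p of 0.33), or -0.52 without A10-FMT replicate 3. Igf1r, a receptor for insulin-like growth factors, was lower by less, at -0.31 (SE 0.15, adjusted p of 0.40).
Across the glucose-sensing list, 10 of 15 tested genes were lower, 4 of them without overlap between groups, where 5.72% of all genes did so. The list median was -0.11, and it was -0.13 in Con-FMT against STZ. Without A10-FMT replicate 2 the median was -0.02, so the list as a whole lay close to 0.

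Genes that glucocorticoid hormones induce were also lower with the transplant. Of the 15 genes on that list 14 were tested, and 13 had a lower mean in A10-FMT. The median difference was -0.57 (-0.74 deposited), and leaving out any 1 library kept it between -0.73 and -0.46. At an unadjusted p under 0.05, 8 of the 14 were lower (5.75% of all genes were) and 0 higher, and 5 were lower without overlap (5.72% of all genes). None passed the adjusted threshold. In Con-FMT the median was -0.43, close to that of A10-FMT.

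Pdk4 (pyruvate dehydrogenase kinase 4, chr6:5483351-5496309) blocks the entry of pyruvate into the citric acid cycle and is induced in fasting. It was at 10.1, 13.9 and 4.13 RPKM in STZ and 2.65, 2.31 and 1.45 RPKM in A10-FMT. Each A10-FMT library was under each STZ library, and the naming rule that picked Pdk4 beside the list required this. The difference was -1.45 (SE 0.29) with an adjusted p of 0.089, and without STZ replicate 3 it was -1.86 with an adjusted p of 0.0081. Con-FMT (2.52, 2.75 and 5.41 RPKM) and Con (1.71, 2.88 and 2.65 RPKM) were at like levels to A10-FMT, with 1 Con-FMT library inside the STZ range.

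Per1, a repressor of the circadian clock that glucocorticoids also induce, gave 15.2, 20.2 and 12.2 RPKM in STZ against 7.49, 7.55 and 7.89 RPKM in A10-FMT. The A10-FMT libraries were tightly grouped and under all STZ libraries. The naming rule that picked Per1 beside its lists required the lack of overlap. The difference was -0.77 (SE 0.18, adjusted p of 0.14). Errfi1, a feedback inhibitor of the epidermal growth factor receptor, was at 19.7, 27.2 and 61.7 RPKM and 7.04, 14.7 and 7.06 RPKM, with STZ replicate 3 far above the rest. It differed by -1.55 (SE 0.37, adjusted p of 0.14). Klf9, a transcription factor, was at 8.67, 10.9 and 4.95 RPKM and 3.67, 3.72 and 3.45 RPKM, likewise apart. It differed by -0.77 (SE 0.20, adjusted p of 0.19), or by -1.02 without STZ replicate 3, with an adjusted p of 0.035.
Clock genes were lower as well: 16 of 17 were lower, with a median of -0.33. In Con-FMT it was -0.03, and without STZ replicate 1 and A10-FMT replicate 3 it was -0.06 in A10-FMT. Per1 belongs to both lists. Among the others, Cry2 differed by -0.30 (SE 0.11) and Per3 by -0.47 (SE 0.19), with adjusted p of 0.34 and 0.36. The hour at which the spleens were taken is not given in the sources used here.

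**Figure D2:**
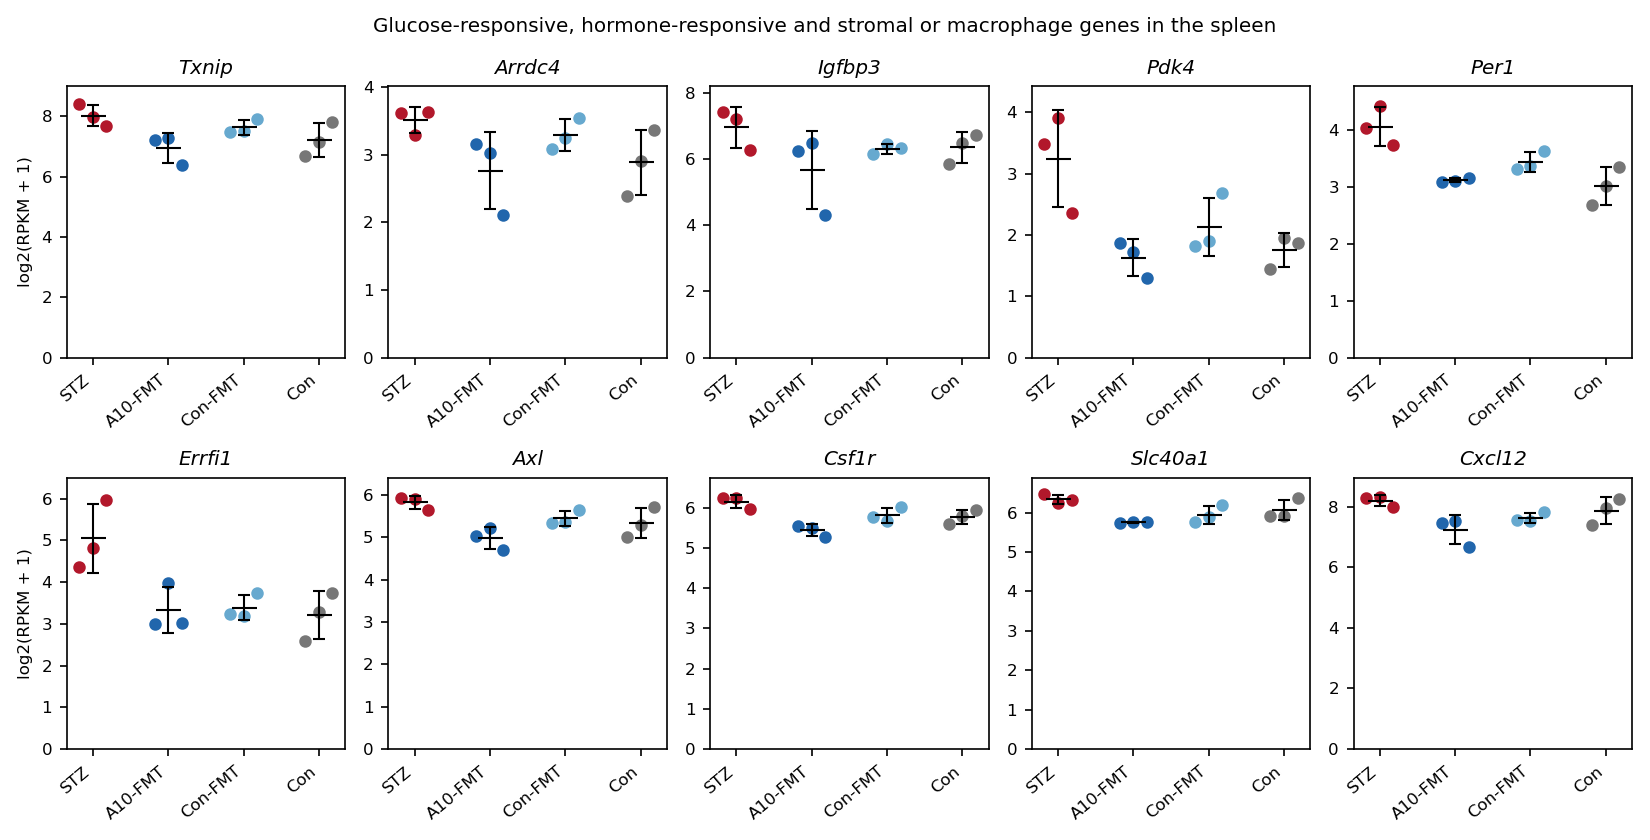
Level of 10 genes (log2(RPKM + 1), vertical axes) in STZ, A10-FMT, Con-FMT and Con spleens; points are libraries in replicate order and bars the mean and SD of 3. For 9 of the 10 genes the 3 A10-FMT points lie below the 3 STZ points, and the groups overlap for Igfbp3.

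Macrophage genes of the red pulp were mostly lower in their means. Of 30 tested genes of red pulp macrophages and iron recycling, 22 were lower and 8 higher, and 12 were lower without overlap, where 5.72% of all genes tested did so. At an unadjusted p under 0.05, 10 were lower (5.75% of all genes were) and 1 higher (6.99% of all genes were). The median difference was -0.24, and -0.16 in Con-FMT. The mean log2 level of the list was 5.64, 5.91 and 5.76 in STZ and 5.62, 5.50 and 5.66 in A10-FMT. The groups overlapped there, with A10-FMT replicate 3 above STZ replicate 1. None of the 30 passed the adjusted threshold. In bulk spleen, fewer cells of a type and less RNA per cell cannot be told apart.

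Axl, a receptor kinase that macrophages use to take up dying cells, was at 59.4, 59.2 and 48.6 RPKM in STZ and 31.5, 35.99 and 25.1 RPKM in A10-FMT. The highest A10-FMT library was well below the lowest STZ library. A lack of overlap was required by the naming rule, which picked Axl beside the list. The difference was -0.67 (SE 0.15, adjusted p of 0.13). Csf1r, the receptor for the main macrophage growth factor, was at 75.1, 74.5 and 61.1 RPKM against 45.8, 44.2 and 37.5 RPKM. It too was lower in each A10-FMT library, by -0.54 (SE 0.13, adjusted p of 0.14).
The iron exporter Slc40a1 (ferroportin, chr1:45908068-45926523) had 87.3, 74.8 and 78.5 RPKM in STZ and 52.8, 52.9 and 53.6 RPKM in A10-FMT. Those 3 A10-FMT values differ by under 1 RPKM and lie below all STZ values. The difference was -0.41 (SE 0.13, adjusted p of 0.30), and that of Con-FMT was -0.40. Lrp1, a scavenger receptor that takes up heme bound to hemopexin, differed by -0.53 (SE 0.14, adjusted p of 0.18).

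Genes that the naming rule brought in from outside the lists included these lower genes, whose direction the rule fixed. Ifngr1, a chain of the interferon gamma receptor, was at 86.3, 80.4 and 63.1 RPKM in STZ and 44.7, 53.9 and 35.5 RPKM in A10-FMT, a difference of -0.60 (SE 0.13, adjusted p of 0.13). Tgfbi, a matrix protein made by macrophages and stroma, was at 51.5, 51.1 and 42.1 and 30.2, 33.4 and 21.6 RPKM, a difference of -0.59 (SE 0.13, adjusted p of 0.13). Il9r, a cytokine receptor, was at 33.5, 20.9 and 20.2 and 11.6, 12.9 and 5.39 RPKM, a difference of -1.11 (SE 0.22, adjusted p of 0.089). Their groups did not overlap, which the rule required. Palld, an actin-binding protein, differed by -0.73 (SE 0.16) and Sbf2, of the myotubularin family, by -0.72 (SE 0.14). Adap2 differed by -0.69 (SE 0.15), Dennd5a by -0.42 (SE 0.10) and Kit, the receptor of stem cell factor, by -0.34 (SE 0.09). The adjusted p of these 5 ran from 0.089 to 0.18.

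Genes of white pulp homing had lower means, and 1 library carried much of it. Cxcl12, the chemokine that holds cells in stromal niches, read 309, 318 and 256 RPKM in STZ and 177, 184 and 101 RPKM in A10-FMT. All A10-FMT libraries were lower. The difference was -0.80 (SE 0.19, adjusted p of 0.15), and Con-FMT libraries had 186, 183 and 225 RPKM. S1pr1, which guides lymphocytes out of the spleen, was at 105, 65.1 and 63.4 and 49.96, 54.9 and 22.7 RPKM, without overlap and with A10-FMT replicate 3 far below the other 2 of its group.
Of the 16 tested genes of white pulp homing, 14 were lower, with a median of -0.39. It was -0.06 without A10-FMT replicate 3 and 0.15 without that library and STZ replicate 1. Cr2, the complement receptor of B cells, differed by -0.74 (SE 0.30), and Ebi3, a cytokine chain, by -0.34 (SE 0.14). Of the T cell list 29 of 30 were lower, with a median of -0.23, and of the B cell list 18 of 24, with a median of -0.30. The mean log2 level of the T cell list was 3.86, 3.56 and 3.69 in STZ and 3.63, 3.98 and 2.72 in A10-FMT. One A10-FMT library was far below and the other 2 were within or above the STZ range. Without it the T cell median was 0.13 and the B cell median 0.15, with the direction turned. In Con-FMT the medians were 0.49 and 0.31. The T cell gene Il2ra, the alpha chain of the interleukin 2 receptor, differed by -0.58 (SE 0.19), Il7r by -0.72 (SE 0.28) and the B cell factor Ebf1 by -0.61 (SE 0.27). The lists of NK cells and of MHC class II had medians of -0.08 and -0.14, and turned to 0.14 and 0.19 without both libraries.

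Red cell and proliferation genes were higher on average in A10-FMT, and this rested on the same 2 libraries. A difference above 0 was found for 52.8% of all genes after centring and 27.4% as deposited. All 8 heme synthesis genes and 34 of 35 erythroid genes had a higher mean, with medians of 0.80 and 0.76. All 44 genes of the cell cycle did so, with a median of 0.53. The mean log2 level of the erythroid list was 5.56, 7.04 and 7.08 in STZ and 7.21, 6.62 and 8.03 in A10-FMT. STZ replicate 1 was far below and A10-FMT replicate 3 far above the other 4, which overlapped. Without those 2 libraries the medians were -0.14 for the erythroid list, -0.01 for heme synthesis and -0.12 for the cell cycle. At an unadjusted p under 0.05 just 2 of the 35 erythroid genes differed, both higher, where 6.99% of all genes were higher. Among them was Tspo2, a cholesterol transporter of late red cell precursors. Tspo2 was the sole member without overlap, where 6.17% of all genes were higher without overlap. It was at 22.4, 32.1 and 35.1 RPKM in STZ and 42.1, 39.7 and 57.5 RPKM in A10-FMT. Its difference was 0.79 (SE 0.34), with an adjusted p of 0.38, and 21.3, 21.3 and 23.4 RPKM were found in Con-FMT. Hba-a1, an alpha globin gene that shares nearly all its sequence with Hba-a2, was at 46033, 162036 and 171344 RPKM in STZ and 209675, 136753 and 215329 RPKM in A10-FMT. Reads of such copies cannot be assigned with certainty.
Urod of the heme pathway differed by 0.83 (SE 0.38) and Kif20a of dividing cells by 0.68 (SE 0.29), neither past the threshold.

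Platelet genes were higher than in 2 of the 3 STZ libraries. All 30 members of the platelet and megakaryocyte list had a higher mean, 15 at an unadjusted p under 0.05 (6.99% of all genes were), with a median of 0.68. In Con-FMT the median was 0.70. The mean log2 level was 3.33, 3.35 and 4.37 in STZ and 4.33, 4.34 and 4.26 in A10-FMT, so that STZ replicates 1 and 2 were low and replicate 3 lay above all A10-FMT libraries. Only 2 of the 30 genes were higher without overlap, where 6.17% of all genes were.
Gp6, the collagen receptor of platelets, showed it at 2.89, 2.07 and 8.37 RPKM in STZ and 7.03, 7.35 and 7.35 RPKM in A10-FMT. The difference was 0.94 (SE 0.34), with an adjusted p of 0.34, or of 0.035 without STZ replicate 3. Slc6a4, the serotonin transporter, was at 2.52, 2.48 and 8.18 and 8.04, 8.4 and 7.49 RPKM, a difference of 1.06 (SE 0.38). Mmrn1, an alpha granule protein, differed by 0.91 (SE 0.32) and the thrombin receptor F2rl2 by 0.99 (SE 0.35). Con libraries were higher again, with 22.5, 11.8 and 12.2 RPKM of Gp6.
Neutrophil granule genes were mixed: 16 of 23 were higher and 4 were lower without overlap (5.72% of all genes were). The list median was 0.51, and 0.19 without STZ replicate 2 and 1.05 without STZ replicate 3. Stfa2l1, a cystatin of neutrophils, was at 31.03, 28.9 and 6.74 RPKM in STZ and 2.53, 4.57 and 4.79 RPKM in A10-FMT, a difference of -1.84 (SE 0.73).

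**Figure D3:**
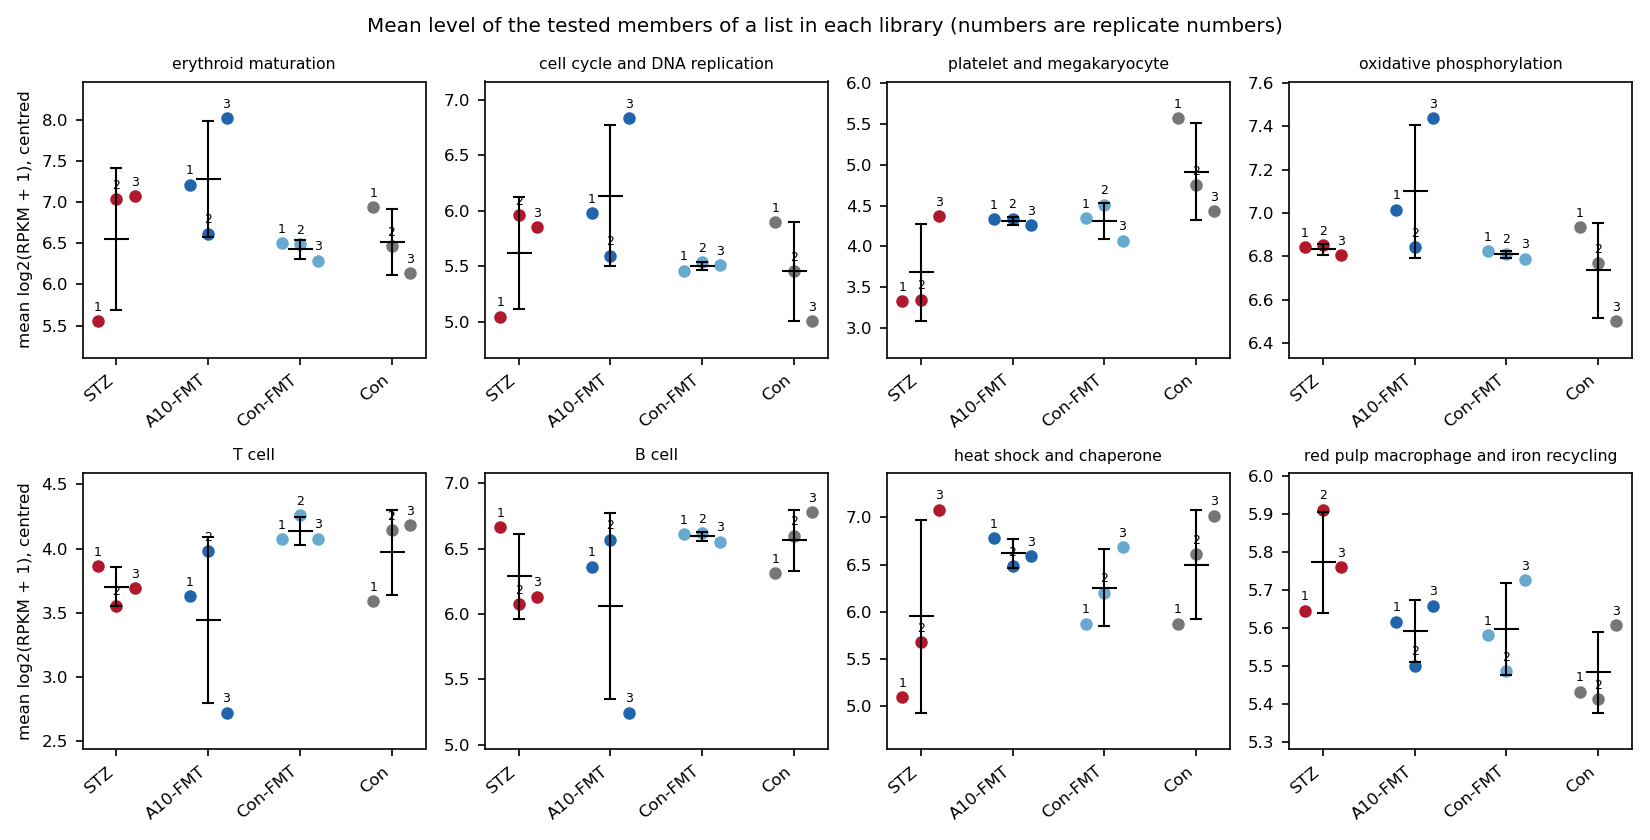
Mean log2(RPKM + 1) of the tested members of 8 lists in each library (vertical axes, globin genes left out and libraries centred), with the replicate number at each point and the mean and SD of 3. Among the 6 STZ and A10-FMT libraries, STZ replicate 1 is lowest and A10-FMT replicate 3 highest for the erythroid and cell cycle lists, A10-FMT replicate 3 is lowest for T and B cells, and STZ replicates 1 and 2 are low for platelets.

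Oxidative phosphorylation genes, which code for the respiratory chain, were higher by a small amount. All 25 had a higher mean, 8 of them at an unadjusted p under 0.05 (6.99% of all genes were), with a median of 0.28 (0.11 deposited, where 20 of 25 were higher, and 0.09 with quantile normalization). Without A10-FMT replicate 3 the median was 0.11, and Con-FMT had -0.03. The list means were 6.84, 6.85 and 6.80 in STZ and 7.02, 6.84 and 7.44 in A10-FMT, with replicate 3 the highest and replicate 2 inside the STZ range. Ndufb5, of complex I, was at 73.03, 55.02 and 54.5 RPKM in STZ and 65.6, 68.2 and 63.2 RPKM in A10-FMT. Those values overlap as deposited and are apart after centring, with a difference of 0.29 (SE 0.09) and an adjusted p of 0.31. Cytochrome c (Cycs) differed by 0.51 (SE 0.19), Ndufs8 by 0.29 (SE 0.11) and Atp5o by 0.43 (SE 0.15). Mrpl14 and Ass1 are not on the oxidative phosphorylation list. The naming rule brought them in, and it required their direction and lack of overlap. Mrpl14, a protein of the mitochondrial ribosome, was at 38.8, 39.3 and 41.1 RPKM in STZ and 54.1, 54.1 and 57.4 RPKM in A10-FMT. It was apart in both versions, with a difference of 0.63 (SE 0.13, adjusted p of 0.089). Ass1, which makes argininosuccinate from citrulline, was at 19.5, 15.97 and 17.8 and 21.0, 26.8 and 25.5 RPKM, a difference of 0.60 (SE 0.12, adjusted p of 0.089).

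Heat shock genes were higher in all 14 cases, with a median of 0.49 that was 0.07 without STZ replicate 1 and A10-FMT replicate 3. Hspa1b, an inducible chaperone, ranged over 1.3, 4.68 and 79.1 RPKM within STZ and 58.4, 65.2 and 10.7 RPKM within A10-FMT, a spread far larger than the difference between groups. The mitochondrial chaperonin Hspe1 differed by 0.34 (SE 0.16, adjusted p of 0.39). Lists near 0 were glycolysis (0.09), fatty acid oxidation (0.06), cholesterol and fatty acid synthesis (0.02), ribosomal proteins (0.02), apoptosis and p53 (-0.01), immediate early genes (-0.04) and monocytes (-0.08). As deposited these 7 medians ran from -0.25 to -0.08, so that 4 of them changed sign with the scaling.
Complement genes made by immune cells had a median of -0.15, interferon-stimulated genes -0.20, endothelial genes -0.23, matrix and smooth muscle genes -0.19 and the plasma cell list 0.18. These medians rested on single libraries in part. The interferon-stimulated one turned to 0.12 without STZ replicate 3, and the matrix one was -0.06 without STZ replicate 2. The endothelial one was -0.13 without A10-FMT replicate 3, the complement one -0.09 without STZ replicate 1 and the plasma cell one 0.11 without STZ replicate 2. The complement proteins C4b and C3 differed by -0.60 (SE 0.21) and -0.67 (SE 0.25), and C1qa by -0.32 (SE 0.18). Of 19 tested endothelial genes 6 were lower without overlap (5.72% of all genes were) and 2 higher (6.17% of all genes were). Among the lower were Eng, a co-receptor for transforming growth factor beta (-0.35), and Flt1, a receptor for vascular endothelial growth factor (-0.26). Clec4g, a lectin of sinusoidal endothelium, was at 0.4, 0.45 and 1.05 RPKM in STZ and 2.25, 2.85 and 0.7 RPKM in A10-FMT, close to the level of a few reads. None passed the adjusted threshold.

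**Figure D4:**
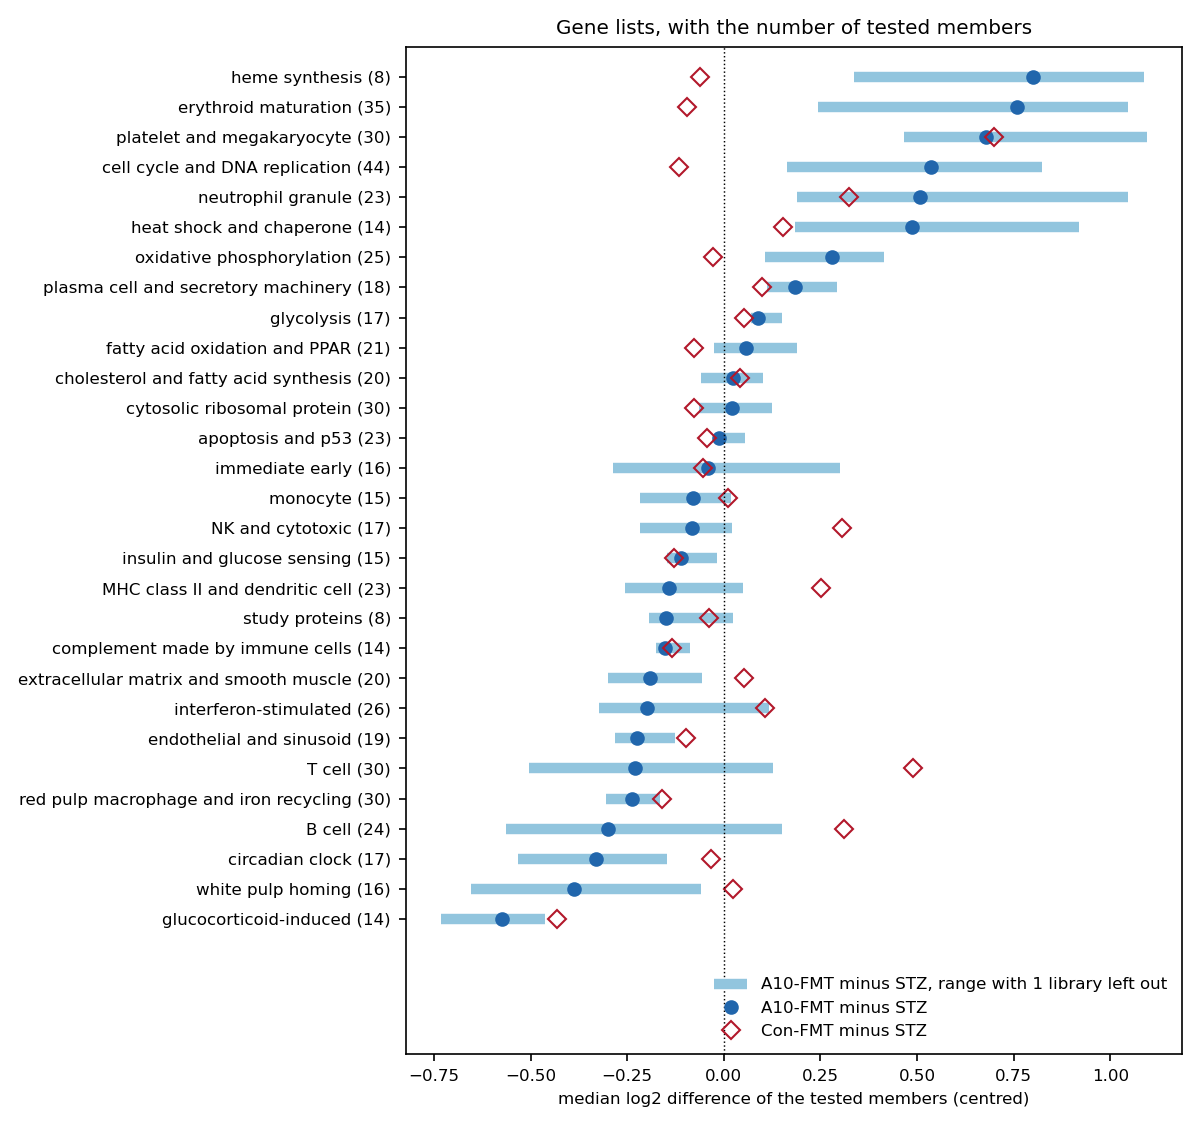
Median log2 difference from STZ of the tested members of 29 gene lists (horizontal axis; number of members in brackets) in A10-FMT (filled circles, with the range when 1 library is left out) and Con-FMT (open diamonds). The glucocorticoid-induced list is lowest, at -0.57, and keeps its sign with any library left out, while the T and B cell ranges cross 0. The Con-FMT medians use the same STZ libraries.

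The transcripts the study followed as spleen proteins gave no call. Bcl2 gave none either, and for its protein the study lists an antibody but describes no result. Bcl2, which blocks apoptosis, was at 24.3, 16.9 and 13.8 RPKM in STZ and 12.1, 13.1 and 6.44 RPKM in A10-FMT, without overlap. The difference was -0.59 (SE 0.18, adjusted p of 0.29). Bcl2l1, its relative in red cell precursors, was at 22.7, 68.4 and 82.2 and 87.6, 69.7 and 84.3 RPKM, a difference of 0.82 (SE 0.46, adjusted p of 0.42) that was 0.21 without STZ replicate 1.
Cd163, the scavenger receptor for hemoglobin bound to haptoglobin, was at 2.96, 5.24 and 2.43 RPKM in STZ and 1.66, 1.57 and 1.98 RPKM in A10-FMT. It was lower in A10-FMT in each library as deposited, by -0.69, and overlapped after centring, by -0.52 (SE 0.24, adjusted p of 0.39), or by -0.24 without STZ replicate 2. Ccl21a, the chemokine of T cell zones, was at 1724, 1014 and 643 and 788, 1051 and 317 RPKM, a difference of -0.53 (SE 0.36), and its receptor gene Ccr7 at 43.2, 28.3 and 46.4 and 32.8, 49.2 and 13.2 RPKM, a difference of -0.28 (SE 0.30). Both spread widely within A10-FMT, with replicate 3 the lowest, and both turned upward (0.21 and 0.18) without that library and STZ replicate 1. Mki67, a marker of dividing cells, was at 81.2, 205 and 205 and 203, 147 and 341 RPKM, a difference of 0.69 (SE 0.43) that turned to -0.20 without the same 2 libraries. Trp53 differed by -0.02 (SE 0.12) and Bax, which promotes apoptosis, by 0.15 (SE 0.10), against -0.19 and -0.02 as deposited. Adjusted p-values of these 5 ran from 0.45 to 0.94.

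Transcripts of other tissues differed between the groups. Liver transcripts were higher in A10-FMT than in STZ: of 36 genes on the hepatocyte list, whatever their level, 31 were higher without overlap and 0 lower, where 2.61% of all 19320 genes were higher without overlap as deposited. Their summed level was 155, 131 and 119 RPKM in STZ and 323, 318 and 676 RPKM in A10-FMT, against 133 to 223 RPKM in Con-FMT and 252 to 671 RPKM in Con. Alb (albumin) was at 0.32, 1.45 and 0.95 RPKM in STZ and 42.3, 32.6 and 175 RPKM in A10-FMT. STZ libraries were near 0, while A10-FMT libraries were all above 30 RPKM. The difference was 5.27 (SE 0.99, adjusted p of 0.081). Con-FMT had 8.8, 10.3 and 1.19 RPKM and Con 7.59, 105 and 97.95 RPKM, so that 2 of 3 Con libraries, from mice without a transplant, reached like levels. Apoa2 (0.53, 0.57 and 0.76 against 31.7, 22.02 and 70.6 RPKM), an apolipoprotein, differed by 4.71 (SE 0.89, adjusted p of 0.081). It met the filter of 1 RPKM in 3 libraries through A10-FMT alone, so the filter had already fixed its direction and lack of overlap. The naming rule required both of Alb and of the liver genes that follow as well. The other liver genes named by the rule were Mat1a, Hpd and Bhmt of amino acid metabolism, the retinol carrier Rbp4, the cytochrome Cyp3a11, and the plasma proteins Ahsg and Fgb. Their differences ran from 2.46 (Mat1a) to 3.75 (Ahsg), with adjusted p from 0.072 to 0.11. In A10-FMT they were near 3.94, 2.19 and 9.19 RPKM (Mat1a) and 9.73, 7.52 and 32.6 RPKM (Ahsg). Whether this is RNA of liver carried into the sample or expression in the spleen was not tested.

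Pancreatic transcripts varied within groups far more than between them. Summed over 30 acinar genes, STZ had 8119, 3776 and 1802 RPKM and A10-FMT 246, 30473 and 1599.9 RPKM. Replicate 2 of A10-FMT was far above and replicate 1 far below every STZ library. Ctrb1, a digestive enzyme precursor, showed this at 1827, 1228 and 344 and 38.1, 5390.0 and 266 RPKM, a difference of -1.09 (SE 1.65) with no call. The islet hormones differed in kind: Ins2, which codes for insulin, was listed at 0 in all 3 STZ libraries and was at 0.21, 19.97 and 1.58 RPKM in A10-FMT. Con-FMT had 2.26, 1.72 and 0.22 RPKM, and the Con libraries listed it at 0. Too few libraries passed 1 RPKM for a test. Ins1 was at 0, 7.89 and 0.69 RPKM and Gcg (glucagon) at 0.14, 2.78 and 0 RPKM in A10-FMT, highest in the replicate with the most acinar RNA. The pancreas lies beside the spleen, and how much of it was carried over was not tested.

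The Reg family codes for secreted lectins made by pancreas and gut. Summed over 7 genes, it was at 379.87, 80.64 and 79.65 RPKM in STZ and 4.62, 644.75 and 36.74 RPKM in A10-FMT. A10-FMT replicate 2 was thus above every STZ library. Of the 7 genes, 3 were lower in A10-FMT without overlap as deposited (9.32% of all genes were) and 4 overlapped. Reg3b was at 160.4, 31.97 and 12.4 RPKM in STZ and 0, 4.19 and 0.2 RPKM in A10-FMT, with 23.97, 10.0 and 34.6 RPKM in Con-FMT and 1.42, 0.22 and 0.12 RPKM in Con. For Reg3b, A10-FMT was below STZ throughout, and the naming rule that picked it beside the list required this. Within STZ, A10-FMT and Con the libraries ranked by Reg3b as they did by summed acinar RPKM, and in Con-FMT they did not. The part of carried-over pancreas in Reg3b was not tested. The difference was -4.33 (SE 0.77, adjusted p of 0.074), and -5.11 without STZ replicate 3, with an adjusted p of 0.017. Its neighbour Reg3a was at 30.4, 3.2 and 3.18 RPKM and 0, 1.86 and 0.27 RPKM, a difference of -2.25 (SE 0.68, adjusted p of 0.27).
Gdpd3, a lysophospholipase D, was at 26.9, 76.03 and 3.08 RPKM in STZ and 0.36, 0.37 and 0.27 RPKM in A10-FMT. It met the filter of 1 RPKM in 3 libraries through STZ alone, so the filter had already fixed its direction and lack of overlap against STZ. Its level in A10-FMT was that of Con (0.43, 0.66 and 0.38 RPKM), and Con-FMT had 27.3, 36.6 and 29.2 RPKM. The difference of A10-FMT from STZ was -3.78 (SE 0.81, adjusted p of 0.12) and from Con-FMT -4.41 (adjusted p of 0.23). Without STZ replicate 3 the former was -4.93, with an adjusted p of 0.0103.
Adipose transcripts were higher in part: 6 of 16 genes had all A10-FMT libraries above STZ (2.61% of all genes did) and 1 below. Cfd (adipsin) was at 2.75, 4.79 and 0.85 and 13.1, 40.7 and 27.6 RPKM, with 68.2, 26.8 and 3.14 RPKM in Con-FMT, a difference of 3.07 (SE 0.90, adjusted p of 0.26). Fabp4, a fatty acid carrier of fat cells and endothelium, differed by 1.24 (SE 0.54). Of 18 testis germ cell genes 3 were lower without overlap, against 9.32% of all genes, and their summed level was 7.03 to 12.7 RPKM in STZ and 2.98 to 4.66 RPKM in A10-FMT. Y-linked transcripts were low in STZ replicate 1, with Eif2s3y at 39.99, 69.7 and 63.1 RPKM in STZ and 67.7, 72.6 and 63.04 RPKM in A10-FMT.

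**Figure D5:**
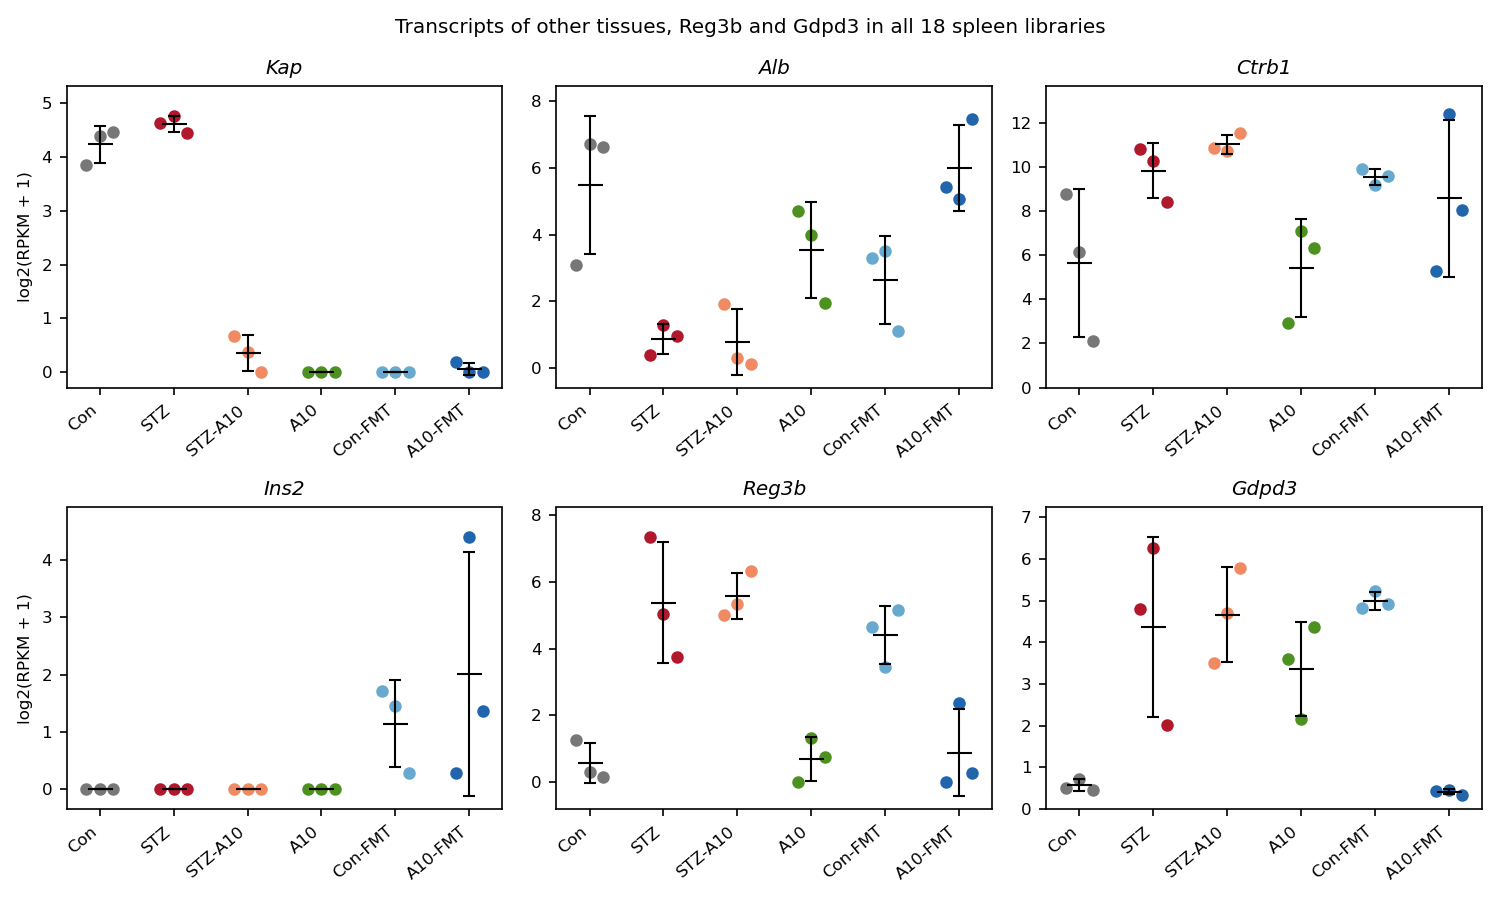
Level (log2(RPKM + 1), vertical axes) of 6 genes in all 18 libraries by group; points are libraries in replicate order and bars the mean and SD of 3. Kap is high in Con and STZ and near 0 in the other 4 groups, Ins2 is above 0 in both transplant groups only, and A10-FMT shares low Gdpd3 with Con.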

How the data were processed

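RNA-seq of 6 spleen libraries, 3 A10-FMT and 3 STZ, was compared by the groups in the sample labels, with the other 12 libraries of the series in the fit. Poly(A)-selected RNA was sequenced on an Illumina instrument. The deposited values are RPKM, made by the authors from reads per gene; their methods name SOAPaligner and 2 mismatches, while the submitters' processing notes name Bowtie 0.12.2 and mm10. Globin reads stay in the RPKM denominator, so a library rich in globin has lower values for other genes. Read totals are not given, so no counting interval was computed. Of 19326 lines, 6 with repeated names were dropped, and 26 names had become dates. Columns of no sample numbered 0.

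Genes with at least 1 RPKM in 3 of the 6 libraries were tested on log2(RPKM + 1) with limma 3.58.1 (trend, R 4.3.3), 1 coefficient per group over all 18 libraries and two-sided p-values adjusted by the Benjamini-Hochberg method at 0.05. This was done as deposited, and with the globin genes left out and each library centred on its median. A pseudocount of 1 understates the change of low genes. On simulated data of 12237 and 12231 genes, 96.5% and 98% of 200 genes changed by 2 on the log2 scale were recovered. In the 6 libraries, Alb, Reg3b and Gdpd3 differed by more than that and did not pass the threshold with all libraries in. Whether those shares hold at the spread of these 6 libraries was not tested. Named genes were those past the threshold without overlap between groups and with a mean of 5 RPKM in the higher group, filled to 10 per direction and version by the lowest p, plus for each list the 4 of lowest p (for other tissues the 4 most abundant) and the study's proteins. A few others (Miox, Slc22a6, Hba-a1's copies and the promoters shown) were named after their values were seen. Some genes that the rule names are not reported here. Lists were written from general knowledge. The comparison, the lists and the rule were chosen with earlier results of these data known. Positions are from GENCODE M21 (GRCm38) by symbol, and 98.9% of 19320 symbols were in the reference tables. The alternatives tried are in the closing section.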

Additional observations from a re-analysis of the deposited data

Results flagged for a closer look

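Insulin transcripts lie outside the tested genes, since too few libraries reached 1 RPKM, and were looked at because they exceed the Con level. Ins2 was at 0.21, 19.97 and 1.58 RPKM in A10-FMT replicates 1 to 3, against a listing at 0 in all Con and STZ libraries. Per 1000 RPKM of the acinar gene Ctrb1, Ins2 stood at 5.51, 3.71 and 5.93 RPKM in A10-FMT and at 2.36, 2.97 and 0.285 RPKM in Con-FMT. The ratios of A10-FMT replicate 1 and Con-FMT replicate 3 rest on 0.21 and 0.22 RPKM of Ins2, a level of few reads. Con replicate 1, without streptozotocin and with 438 RPKM of Ctrb1, also listed Ins2 at 0. STZ replicate 1, with 1827 RPKM of Ctrb1, and the 3 STZ-A10 libraries, with 1687 to 2977 RPKM of it, listed Ins2 at 0. How much pancreas each spleen carried was not measured, and its part in these values was not tested.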

How the results depend on the processing

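Kap passed the threshold in each of the 16 alternatives that tested it, and was the 1 gene to do so in 10 of them as deposited and 11 after centring. The filter of 1 RPKM in all 6 libraries left Kap out and gave 0 genes in both versions (1883 and 1415 at an unadjusted p under 0.05 by limma). With no filter 8 genes passed as deposited. With the 6 libraries fitted alone there were 5 as deposited and 3 after centring (641 and 554 at an unadjusted p under 0.05 by limma). Array weights, whose estimation did not converge, gave 6625 and 4724 genes, and 94 of the 155 tested named genes in A10-FMT against Con-FMT. Leaving out a single library moved the counts between 1 and 78 as deposited, 1 and 42 after centring and 0 and 30 for the named genes against Con-FMT. The 78 and 42 came without STZ replicate 3 and the 30 without A10-FMT replicate 2. With STZ replicate 1 and A10-FMT replicate 3 both left out, an alternative chosen after seeing the data, 2 genes passed in each version.

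Deviations of same-numbered STZ and A10-FMT libraries from their group means correlated at 0.041, -0.41 and 0.27 for replicates 1 to 3. With the other numbers the ranges were -0.50 to 0.53, -0.068 to 0.41 and -0.30 to 0.0037. Replicate 3 alone was most like its own number. Deviations from means of 3 libraries cannot settle whether the numbers are pairs. Fitting the replicate block left 1 gene in each version.

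Some log2 differences changed sign. With both of those libraries out, deposited and centred values were 0.17 and 0.21 for Ccl21a, 0.15 and 0.18 for Ccr7, and -0.24 and -0.20 for Mki67, and Bax was at 0.17 as deposited. Array weights gave 0.0080 and 0.057 for Cr2, 0.13 and 0.18 for Ccr7, and 0.12 for Bax as deposited. Trp53 was at 0.021 with no filter, and Bax at -0.0015 with quantile normalization. Leaving out single libraries took Ctrb1 from -3.17 to 0.39 as deposited and from -2.93 to 0.57 after centring, Ccr7 from -0.85 to 0.063 and from -0.61 to 0.15, Trp53 from -0.13 to 0.083 after centring and Bax from -0.083 to 0.091 as deposited. After centring, leaving out 1 library moved 26 of 75 genes named in the text, and the medians of 27 of 29 lists, by over 1.5 times, and turned the sign of 3 genes and 12 medians. The cause was not tested. Depth is unknown, and values under 1 RPKM rest on few reads.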

Other observations

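Kap separates the series in a way that crosses diabetes. Among 12905 genes with at least 1 RPKM in 3 of the 18 libraries, Kap was the 1 gene whose 6 Con and STZ libraries all lay above the 12 others, and 0 genes lay below in the same way. The lowest of those 6 was 13.33 RPKM and the highest of the 12 others 0.60 RPKM. Under that level the kidney transcripts Miox and Slc22a6 were split likewise and were listed at 0 in all 12. The share of all genes split so at such low levels was not counted. The 12 others hold every animal that had AOS or a transplant, with and without streptozotocin. Whether the 12 differ from the 6 in handling or in the animals' source is not given in the sources used here, so treatment and such a batch cannot be told apart.

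The adult beta globin genes varied between libraries in a manner that did not follow the groups. Hbb-bs and Hbb-bt made up 35.7%, 0.356% and 18.01% of adult beta globin RPKM in STZ replicates 1 to 3, and 49.5%, 16% and 0.75% in A10-FMT. These genes are near-identical to Hbb-b1 and Hbb-b2, so reads of such copies cannot be assigned with certainty, and the mice are outbred. The part of either in the split was not tested.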
